A study of Apostichopus japonicus with 3 samples.

Results

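Major yolk protein transcripts were followed through the summer dormancy of the sea cucumber Apostichopus japonicus. The transcripts are isotigs, sequences assembled from reads without a reference genome, and they were chosen by the words major yolk protein in the description of their best protein match. The choice gave 4 of the 20712 isotigs with reads in any library. In 3 of them (isotig13120, isotig01298 and isotig01299) the match was major yolk protein 1, and in isotig03531 it was major yolk protein 2, each time from Apostichopus japonicus itself, with an E value deposited as 0.

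Messenger RNA of the intestine was sequenced in 1 library for each of 3 stages. The labels call them non-aestivation, deep aestivation, and arousal, the waking from it, and the series' design text speaks of at least 15 individuals per stage. Aestivation is a dormant state of the warm season in which these animals stop feeding and the gut regresses. No age, sex or treatment is given in the labels, and the sources used here do not say whether animals were pooled. Uniquely aligned reads came to 1.02 M at non-aestivation, 0.893 M at deep aestivation and 0.945 M at arousal.

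Major yolk protein is the most abundant protein of sea urchin yolk. It is related to transferrins, the iron carriers of animal blood, and not to the vitellogenin that most egg-laying animals load into eggs. In sea urchins it is made by the gut as well as the gonad of both sexes, is secreted into the coelomic fluid, binds iron and zinc, and is stored in the nutritive cells of the gonad until gametes form. Its RNA in a gut library does not by itself mark gonad cells.

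The table recorded at non-aestivation is named at arousal and the reverse. Values here are grouped by label. By file name instead, the library low in major yolk protein would be that of arousal. The directions below would not hold for isotig13120, the main member, and every ratio of arousal over non-aestivation would be inverted. An isotig highest or lowest in deep aestivation would keep that place. Deep aestivation over non-aestivation would then be 0.950 for isotig13120 (95% interval 0.941 to 0.958), and would not be called. Arousal would be lower than deep aestivation, at a ratio of 0.241 (0.238 to 0.244), and lower than non-aestivation, at 0.229 (0.226 to 0.232). With 1 library per stage no spread between animals can be given and no test was made. Intervals therefore cover counting error only. They treat each read as independent, and PCR copies are not independent molecules, so even for counting error they can be too narrow. In such bulk samples fewer cells of a type and less RNA per cell cannot be told apart.

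The most abundant member was isotig13120, the 3038-base isotig that matched major yolk protein 1. It had 25032 reads at non-aestivation, 90687 at deep aestivation and 101055 at arousal. Non-aestivation thus gave it a share of 2.45% of all reads (exact 95% Clopper-Pearson interval 2.42 to 2.48), deep aestivation 10.2% (10.1 to 10.2) and arousal 10.7% (10.6 to 10.8). The deep aestivation and arousal libraries thus lay close together, with non-aestivation far below both. By reads isotig13120 ranked 4 in non-aestivation, behind 3 isotigs without a protein match, and 1 in deep aestivation and in arousal.

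**Figure D1:**
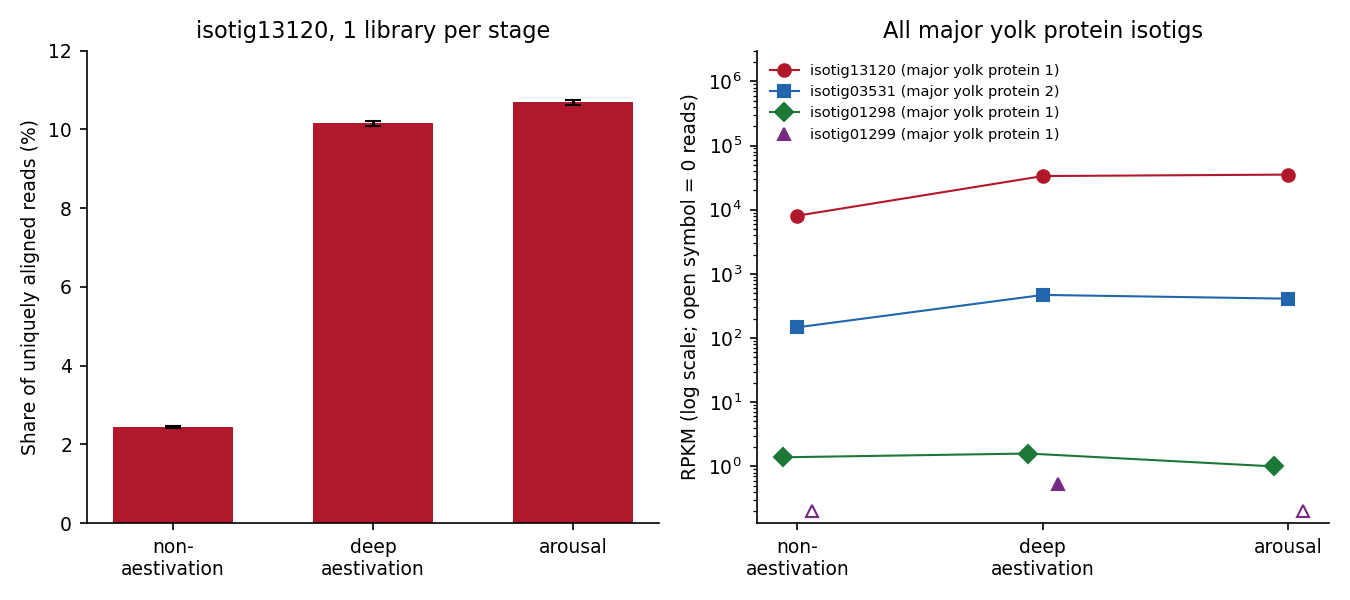
Major yolk protein isotigs in the 3 stages, 1 library each. Left, bars give the share of all uniquely aligned reads held by isotig13120 in percent, with exact 95% binomial intervals as error bars; right, points give RPKM on a log axis for all 4 isotigs, and an open symbol stands for 0 reads, drawn at the foot of the axis. The share was 2.45%, 10.2% and 10.7%, and RPKM of isotig13120 lay above that of the other 3 isotigs in every library.

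Per length, isotig13120 stood at 8059 RPKM (reads scaled to isotig length and to the library's aligned reads) at non-aestivation, 33437 RPKM at deep aestivation and 35208 RPKM at arousal. These levels ranked 8, 4 and 5 among all isotigs, below several much shorter isotigs. Its reads lay along nearly the whole isotig, with 99.64% of the length covered at non-aestivation, 99.64% at deep aestivation and 99.74% at arousal. That left 11, 11 and 8 bases without a read. Isotigs with exactly 1 read had 49 covered bases without exception in each library, so a read spans 49 bases, and the mean depth over isotig13120 was 404-fold, 1463-fold and 1630-fold in the order of the stages.

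Among reads on isotigs with any protein match, the 4 members together held 4.87% at non-aestivation, 18.3% at deep aestivation and 17.0% at arousal. The sum was nearly all isotig13120, which made up 97.4%, 98.0% and 98.3% of it.

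The match to major yolk protein 2, a second member of the family in this species, was isotig03531, 4407 bases long. It had 661 reads at non-aestivation, 1846 at deep aestivation and 1708 at arousal. Non-aestivation was again the low library, and deep aestivation the highest by a small margin. Its share of reads was 0.0647% at non-aestivation (0.0598 to 0.0698), 0.207% at deep aestivation (0.198 to 0.216) and 0.181% at arousal (0.172 to 0.190). In RPKM it stood at 146.7, 469.2 and 410.2, ranks 853, 203 and 237 among all isotigs.

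These reads came from a very small part of the isotig. Only 1.75% of its length was covered, 77 of 4407 bases, and this figure was the same in all 3 libraries. Since a read spans 49 bases, separate stretches would need at least 98 bases, so the covered bases form 1 run with room for 29 different read starts. Had the reads been spread evenly, 99.94% of the length would have been covered in non-aestivation. Of the 234, 178 and 203 isotigs with at least 500 reads in non-aestivation, deep aestivation and arousal, isotig03531 was the only one covered over less than 5% of its length. The next lowest stood at 13.2%, 16.5% and 16.4%, and the median at 97.0%, 96.8% and 96.9%. The files do not give the place of the covered run on the isotig.

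**Figure D2:**
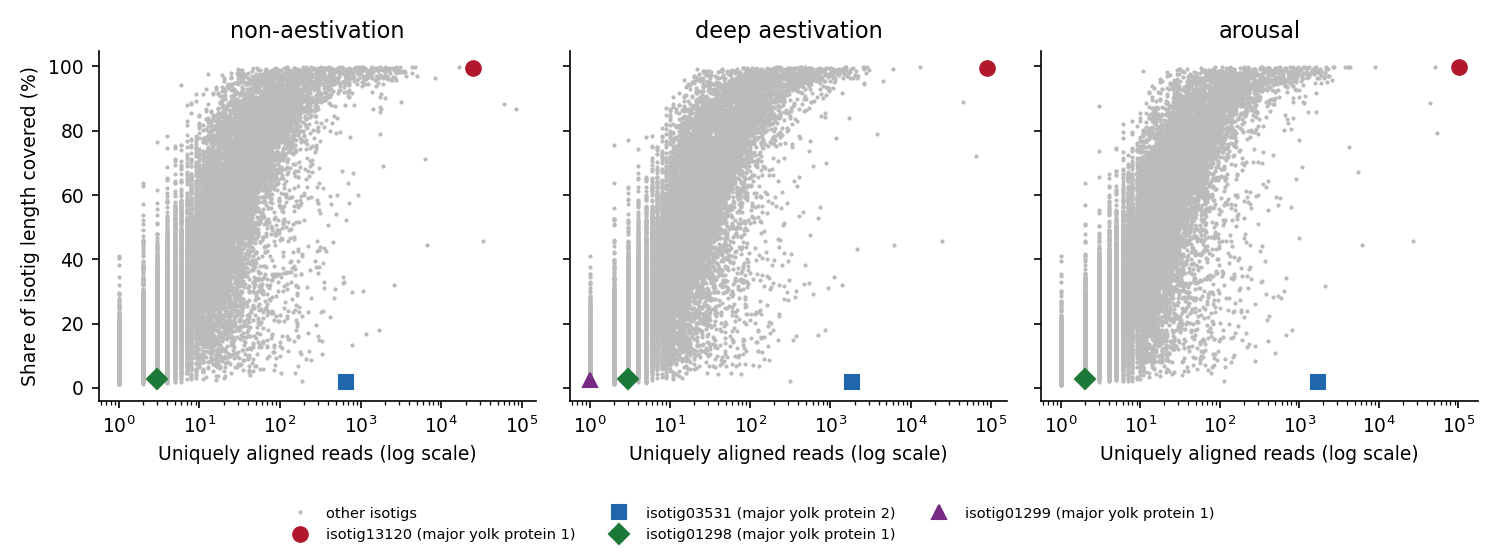
Share of isotig length covered by at least 1 read (percent, vertical axis) against uniquely aligned reads (log axis) for every isotig listed, 1 panel per stage, with the major yolk protein isotigs in colour and other isotigs in grey. isotig13120 lies at the upper right with over 99% covered, while isotig03531, with 661 to 1846 reads, lies at 1.75% below all other isotigs of similar read number.

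RPKM divides by the whole isotig length, so the level of isotig03531 relative to isotig13120 depended on the length used, an alternative chosen after the values were seen. By RPKM isotig03531 stood at 0.0182 of isotig13120 at non-aestivation (0.0168 to 0.0197), 0.0140 at deep aestivation (0.0134 to 0.0147) and 0.0117 at arousal (0.0111 to 0.0122). Per covered base it had 8.58, 24.0 and 22.2 reads in the order of the stages, against 8.27, 29.96 and 33.4 for isotig13120. The ratio per covered base was 1.04 at non-aestivation (0.960 to 1.12), 0.800 at deep aestivation (0.764 to 0.838) and 0.665 at arousal (0.634 to 0.698). Per possible read start within the covered bases isotig03531 was the higher of the pair, with ratios of 2.71, 2.09 and 1.74. A gap of 54.9-fold to 85.8-fold by RPKM was therefore at most 1.504-fold per covered base, and which of the pair was higher turned with the measure. The number of covered bases did not change between stages, so the stage ratios of isotig03531 do not depend on it.

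**Figure D3:**
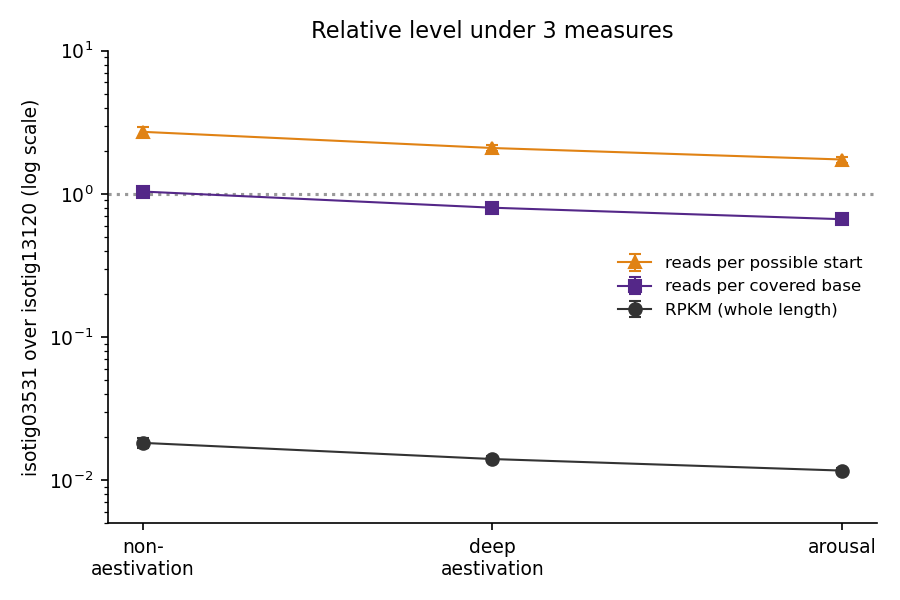
Level of isotig03531 (major yolk protein 2) divided by that of isotig13120 (major yolk protein 1) in each stage, on a log axis, by RPKM over the whole length, by reads per covered base and by reads per possible read start. Error bars are exact 95% intervals for counting error; the dotted line marks equal levels. The RPKM ratio lay between 0.0117 and 0.0182 and the ratio per covered base between 0.665 and 1.04, and both were highest in non-aestivation.

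The remaining members, isotig01298 and isotig01299, were both 2123 bases long, carried the same best match and had almost no reads. isotig01298 had 3 reads at non-aestivation, 3 at deep aestivation and 2 at arousal, or 1.38, 1.58 and 0.997 RPKM. isotig01299 had 0, 1 and 0 reads, and 0 reads allow a share of up to 0.000293% in non-aestivation and 0.000318% in arousal (3 reads of the total). Both lay at or under a floor of 3 reads, so no fold is given, and a difference between stages was not detectable at this depth.

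The few reads of isotig01298 also overlapped. They covered 61 bases at non-aestivation, 57 at deep aestivation and 58 at arousal, where 3 reads could cover up to 147 bases and 2 reads up to 98. Of 1175 isotigs with 3 reads in non-aestivation, 4.17% had as few covered bases or fewer, and the median was 124. The share was 3.44% of 1279 isotigs with 3 reads in deep aestivation and 14.2% of 1612 with 2 reads in arousal. The tables hold only reads that aligned to a single place, so reads shared by near-identical isotigs are not in them. Pairs of neighbouring isotig numbers with equal length and equal match numbered 62 in all, with a median of 10 reads over the 3 libraries, against 25 over the 10174 isotigs with a match. The levels of isotig01298, isotig01299 and isotig03531 are uncertain on this account, and its part in them was not tested.

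Deep aestivation was compared first with non-aestivation. An isotig was called when the log2 ratio of RPKM + 0.5 passed 2-fold and the counting interval of the ratio of read shares, at an error rate of 0.001, excluded 1. By that rule 2 of the 3 members with a mean RPKM of at least 1 were higher in deep aestivation, isotig13120 and isotig03531, against 5.19% of the 18352 isotigs compared. None of the members was lower, where 4.06% of all isotigs were, and 9.25% of all were called in either direction. By 2-fold alone, which needs no interval, the members called were the same in number, but 24.5% of all isotigs were then higher, 17.7% lower and 42.2% either. isotig13120 was 4.15-fold higher (95% interval 4.09 to 4.21), a log2 ratio of 2.05, where the median of all isotigs compared was 0.16. Of the 444 isotigs with at least 500 reads over both libraries, 20 had a larger ratio. Its share grew by 7.71 percentage points, the largest gain of any isotig in this comparison.

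isotig03531 was 3.20-fold higher in deep aestivation (2.92 to 3.501), a log2 ratio of 1.67. The fold of isotig13120 exceeded that of isotig03531 by 1.30 times (exact conditional 95% interval 1.18 to 1.42). Of the reads on these 2 isotigs, isotig03531 accordingly held 1.995% in deep aestivation (1.91 to 2.09), against 2.57% in non-aestivation (2.38 to 2.77). isotig01298 was neither higher nor lower, with 3 reads in either library.

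Arousal was compared next with deep aestivation, and none of the 3 members compared was called in either direction, where 3.37% of all isotigs were higher, 5.31% lower and 8.69% either. By 2-fold alone these were 15.3%, 25.6% and 40.9%, again with 0 members. isotig13120 had 101055 reads in arousal and 90687 in deep aestivation, a ratio of 1.05 (1.04 to 1.06). isotig03531 had 1708 reads in arousal and 1846 in deep aestivation, a ratio of 0.874 (0.818 to 0.934). Both ratios are far under 2-fold, and without replicates they cannot be set against the spread between animals. The direction of isotig03531 also depended on the scaling, with a log2 ratio of -0.19 by total reads, -0.01 by upper quartile and 0.003 by median ratio, whereas isotig13120 stayed above 0 at 0.07, 0.26 and 0.27. Among the reads of the pair, isotig03531 held 1.66% in arousal (1.59 to 1.74), against 1.995% in deep aestivation.

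Arousal against non-aestivation shares its libraries with the comparisons above, so its values add no independent evidence. The same 2 of 3 members were called higher in arousal, where 3.84% of all isotigs were, and 0 lower, where 5.21% were (9.05% in either direction). By 2-fold alone, again with 2 members higher, 18.7% of all isotigs were higher, 22.9% lower and 41.6% either. isotig13120 was 4.37-fold higher (4.31 to 4.43), with 14 of 443 isotigs of at least 500 reads above it, and gained 8.25 percentage points of all reads. isotig03531 was 2.80-fold higher in arousal (2.56 to 3.06). The fold of isotig13120 exceeded it by 1.56 times (1.42 to 1.71).

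**Figure D4:**
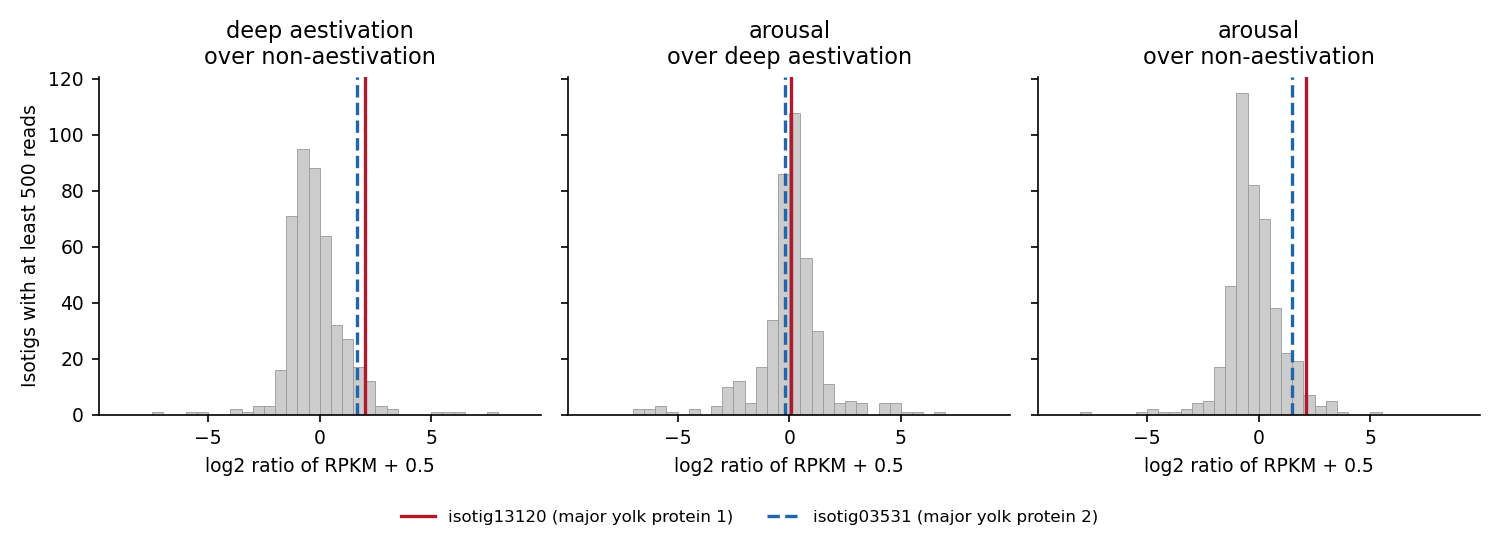
Histograms of the log2 ratio of RPKM + 0.5 over isotigs with at least 500 reads in the 2 libraries compared, 1 panel per comparison, with isotig13120 (solid line) and isotig03531 (dashed line) marked. Both lie in the right tail in deep aestivation over non-aestivation (2.05 and 1.67) and in arousal over non-aestivation (2.13 and 1.48), and near 0 in arousal over deep aestivation (0.07 and -0.19).

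RPKM is relative to all reads, so an abundant transcript lowers that of the others. With the reads of the 4 members taken out of the totals, the log2 ratios of all other isotigs stood 0.12 higher in deep aestivation over non-aestivation, 0.01 higher in arousal over deep aestivation and 0.13 higher in arousal over non-aestivation.

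Other carriers of yolk and lipid were examined beside the members, as 6 isotigs. They include apolipoprotein B, the scaffold of large lipoproteins, vitellogenin-like proteins, and microsomal triglyceride transfer protein, which loads lipid onto apolipoprotein B in vertebrates. In deep aestivation 5 of the 6 were higher than in non-aestivation and 0 lower, with a median log2 ratio of 1.87. Of all isotigs compared, 5.19% were higher and 4.06% lower. The apolipoprotein B match, isotig13070, had 13091 reads in deep aestivation and 1773 in non-aestivation (8.46-fold, 8.05 to 8.89), and the vit-1-like match, isotig17734, 459 and 105 reads in the same order (5.01-fold, 4.04 to 6.25). The vitellogenin match fused to superoxide dismutase, isotig14304, had 974 and 417 reads (2.68-fold, 2.38 to 3.01). The microsomal triglyceride transfer protein matches were 2.38-fold (isotig19382, 1.45 to 4.01) and 6.41-fold (isotig23815, 2.44 to 21.3) higher in deep aestivation. The apolipophorin match isotig21150, named as the lowest, had 58 and 78 reads and was neither.

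In arousal over deep aestivation 0 of 6 carriers were called, against 8.69% of all isotigs, with a median log2 ratio of -0.31. At 1.5-fold in place of 2-fold, 2 carriers were higher and 1 lower. The vit-1-like isotig17734 was the highest, at a ratio of 1.68 in arousal over deep aestivation (1.498 to 1.89), and isotig13070 the lowest by the log2 ratio of RPKM + 0.5, at a ratio of read shares of 0.643 (0.626 to 0.660). The transfer protein match isotig23815 lay beside it at 0.641 (0.338 to 1.19), with 19 and 28 reads. isotig13120, at 1.05, lay between the vit-1-like isotig and these. Against non-aestivation 4 of 6 were higher in arousal and 0 lower, against 3.84% and 5.21% of all isotigs. Their median log2 ratio was 2.00, from isotig17734 (8.42-fold, 6.87 to 10.4) to isotig21150 (0.583, 0.391 to 0.859, neither).

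**Figure D5:**
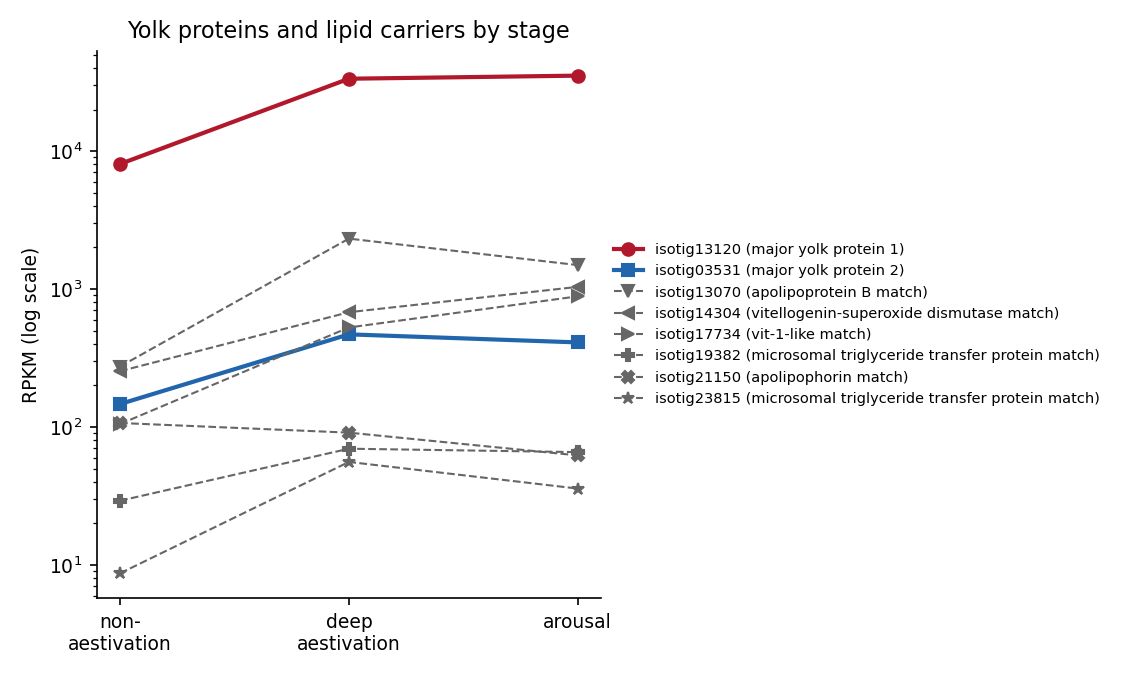
RPKM on a log axis in the 3 stages, 1 library each, for isotig13120 and isotig03531 (solid lines) and for the 6 isotigs of other yolk and lipid carriers (dashed grey lines). isotig13120 lies above all carriers in every library, and all but the apolipophorin match were lower in non-aestivation than in deep aestivation.

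Because major yolk protein belongs to the transferrin family, isotigs for the handling of iron and other metals were also counted. Of 11 in the list 10 were compared, and deep aestivation over non-aestivation had 1 higher, 0 lower and 9 neither (median log2 ratio -0.13). Of all isotigs, 5.19% were higher and 4.06% lower. In arousal over deep aestivation 1 of the 10 was higher and 1 lower (median 0.78), against 3.37% and 5.31% of all isotigs. By 2-fold alone 4 were higher, and 0 with a pseudocount of 1 RPKM. In arousal over non-aestivation 2 were higher and 0 lower (median 0.57), against 3.84% and 5.21% of all isotigs. The transferrin family itself was represented by the melanotransferrin match, isotig15143, a membrane-bound transferrin. It had 61 reads at non-aestivation, 71 at deep aestivation and 126 at arousal (43.4, 57.9 and 97.1 RPKM). Its ratio in deep aestivation over non-aestivation was 1.33 (0.933 to 1.91), neither higher nor lower, and it was 2.24-fold higher in arousal than in non-aestivation (1.63 to 3.09). Its highest library was arousal, and its ratio in arousal over deep aestivation was 1.68 (1.24 to 2.28), neither, where isotig13120 had 1.05.

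The hephaestin-like isotig25012, a match to a copper enzyme that oxidises iron for export, was the highest of the metal list in deep aestivation over non-aestivation, with 100 and 32 reads (3.58-fold, 2.38 to 5.51). It was also the lowest in arousal over deep aestivation, with 26 and 100 reads (a ratio of 0.246, 0.153 to 0.381). Another hephaestin match, isotig08433, named after its values were seen, did not share this rise. It had 30 reads in deep aestivation and 47 in non-aestivation (a ratio of 0.731, 0.446 to 1.18), neither, and 26 in arousal. The zinc transporter match isotig20684 (SLC39A7-like) was the highest in arousal over non-aestivation, with 83 and 26 reads (3.46-fold, 2.20 to 5.59), and the only one higher in arousal over deep aestivation, with 83 and 39 reads (2.01-fold, 1.36 to 3.02). The other isotigs named by their place were all neither. They were isotig22248, a zinc transporter of family 30, the lowest in deep aestivation over non-aestivation (6 and 10 reads) and the highest in arousal over deep aestivation (19 and 6 reads), and the zinc transporter match isotig14350, the lowest in arousal over non-aestivation (11 and 21 reads).

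Markers of gonad cells were counted because major yolk protein is also made there. Of 47 isotigs for germ cells, eggs and sperm, 30 were compared. Deep aestivation over non-aestivation had 1 higher and 0 lower (median log2 ratio 0.16), against 5.19% and 4.06% of all isotigs. The summed share of reads of the 47 was 0.0552% at non-aestivation, 0.0566% at deep aestivation and 0.0356% at arousal. The isotig called was isotig13852, a match to a sperm calcium pump, with 39 reads in deep aestivation and 10 in non-aestivation (4.47-fold, 2.19 to 10.03). In the order of the stages, isotig18034 and isotig15338, with the same description, had 29, 34 and 28 reads and 4, 11 and 12 reads. Both were named after their values were seen, and neither was called. The sum was lower in arousal than in non-aestivation. Of the list, 12, 7 and 15 isotigs had 0 reads in the order of the stages. The 3 isotigs that matched the egg coat matrix protein of this species (isotig25907, isotig17750 and isotig18761, named after their values were seen) had 0 or 1 read in every library. Other isotigs of the list were clearly present, with 9, 11 and 12 of the 47 at 10 reads or more in the order of the stages. The uterine-ovary specific-44 match isotig15459 held the most, with 264 of 564, 198 of 505 and 100 of 336 summed reads. The lower sum in arousal was therefore in part that of 1 isotig, and the sum without it was not taken.

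Of 31 gut lining isotigs compared out of 32, deep aestivation over non-aestivation had 10 higher and 2 lower, against 5.19% and 4.06% of all isotigs. The median log2 ratio of the list was 0.52. In each library 2 of the 32 were at 0 reads. Their summed share was 1.87% at non-aestivation, 0.848% at deep aestivation and 5.82% at arousal. The fatty acid binding protein match isotig19264 made up most of it at non-aestivation and arousal, with 16574, 2849 and 51380 reads in the order of the stages. The other 31 isotigs, summed after the values were seen, held 0.246% at non-aestivation, 0.528% at deep aestivation and 0.382% at arousal. The low place of deep aestivation thus rested on isotig19264 alone. Without it non-aestivation was lowest and deep aestivation highest. Single isotigs weighed in this sum too, and were also named after their values were seen. In the order of the stages isotig21645 had 6, 1169 and 12 reads, isotig26752 1, 405 and 4, and isotig13364 434, 1792 and 1580. The other way, isotig13602 had 1220, 7 and 27. The sum without these isotigs was not taken, so the highest place of deep aestivation may rest on a few of them. Coelomocyte markers, for the free immune cells of the body cavity, held 0.212% of reads at non-aestivation, 0.277% at deep aestivation and 0.190% at arousal, from 44 isotigs of which 8, 6 and 7 were at 0 reads. The complement C3 match isotig13167 held the most, with 1337, 1225 and 751 reads in the order of the stages. It too was named after its values were seen, and without it the sum was not taken, so the low place of arousal may rest on it. Of 37 compared, 7 were higher and 0 lower in deep aestivation over non-aestivation (median log2 ratio 0.59), against the same 5.19% and 4.06%. Isotigs for entry into the secretory pathway, which any secreted protein passes, held 0.201%, 0.176% and 0.204%. The calreticulin-like isotig15543 held the most of these reads, with 925, 561 and 909 in the order of the stages. It was named after its values were seen, and the sum without it was not taken, so the low place of deep aestivation may rest on it. Of 26 compared, deep aestivation over non-aestivation had 0 higher and 1 lower, again against 5.19% and 4.06% of all isotigs. The part of cell composition in the levels of the members was not tested.

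The isotigs whose stage pattern was most like that of isotig13120 were found by the distance in 2 log2 ratios (deep aestivation over non-aestivation and arousal over deep aestivation) among 804 named isotigs with at least 200 reads. The likeness rests on 3 libraries and is a description. The nearest was a match to myo-inositol oxygenase, which starts the breakdown of inositol (isotig20265, distance 0.13), with 36, 124 and 148 reads in the order of the stages. Next came a membrane alanine aminopeptidase match, a peptidase of the cell surface (isotig16462, 0.20), with 196, 625 and 730 reads. A utrophin-like match, a cytoskeletal linker (isotig15177, 0.26), had 37, 115 and 119 reads. The last of the 5 were 2 matches to solute carrier family 43 member 2, a transporter of large neutral amino acids (isotig14983, 0.34, and isotig17668, 0.35), with 52, 212 and 191 reads and with 95, 289 and 273 reads. Measured the same way, isotig03531 lay at a distance of 0.46, with 10 of the 804 isotigs nearer, and isotig13070 at 1.25.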

How the data were processed

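Per the labels' protocols, mRNA was enriched with oligo(dT) beads, fragmented and copied with random hexamers. CASAVA 1.5 is named in the submitters' processing notes; the sources used here name no aligner, assembler or read length. The deposited tables give, per the file headers, counts of uniquely aligned reads, isotig length, the percent of length covered and RPKM by the authors. Deposited read counts summed to the header totals, recomputed RPKM differed by at most 5.09e-15 of its value, and absent isotigs were taken as 0 reads. The reference gene table shares 0 identifiers with the isotigs.

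Ratios are log2 of RPKM + 0.5 over the 18352 isotigs whose RPKM averaged 1 or more; folds are ratios of read shares with exact conditional binomial intervals (Python 3.11.15, scipy 1.17.1). The call rule was run on simulated reads that held counting error alone. Such a run cannot show how the calls behave under the spread between animals or libraries. Members, lists and rules were chosen with earlier results of these data known, and mismatched descriptions were excluded from the lists after reading. Named were members with at least 10 reads (the others are few enough to name too), the highest and lowest of each list with at least 10 reads in both libraries together, the 5 isotigs most like isotig13120 with at least 200 reads, and the 5 most abundant per library, of which those without a protein match are counted only. Alternatives were scaling, pseudocount, filter and call rule.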

Additional observations from a re-analysis of the deposited data

How the results depend on the processing

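With stages by label, under every scaling, pseudocount, filter and call rule tried, 2, 0 and 2 members were called higher in deep aestivation over non-aestivation, arousal over deep aestivation and arousal over non-aestivation, and 0 lower. In deep aestivation over non-aestivation the log2 ratio of isotig13120, 2.05 as reported, was 1.90 with median-ratio scaling, 1.99 with upper-quartile scaling and 2.17 with totals without the major yolk protein reads, and that of the summed RPKM was 1.90, 1.99 and 2.17. In arousal over deep aestivation isotig13120 was at 0.27 with median-ratio and 0.26 with upper-quartile scaling, and the sum at 0.27 and 0.25. In arousal over non-aestivation isotig13120, 2.13 as reported, was at 2.18 (median-ratio), 2.25 (upper-quartile) and 2.26 (without the member reads), and the sum at 2.17, 2.24 and 2.25. Applied to isotig03531 after its values were seen, median-ratio scaling turned arousal over deep aestivation to 0.003; the shift is the scaling's own, since it moved the median of all isotigs to 0.00, from -0.17 by total reads.

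Stages taken by file name, also chosen after the values were seen, gave isotig13120 log2 ratios of -0.0745 in deep aestivation over non-aestivation, -2.05 in arousal over deep aestivation and -2.13 in arousal over non-aestivation, and isotig03531 0.19, -1.67 and -1.48; this follows from exchanging the 2 libraries.

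Over all isotigs, 952 were called higher and 745 lower in deep aestivation over non-aestivation, 619 and 975 in arousal over deep aestivation, and 704 and 956 in arousal over non-aestivation. By 2-fold alone these were 4502 and 3247, 2808 and 4706, and 3429 and 4201. With the 95% interval they were 2071 and 1429, 1183 and 1956, and 1480 and 1791. The share of calls that were higher was 56.1%, 38.8% and 42.4% by total reads, 43.0%, 53.4% and 46.2% by median ratio, 50.2%, 52.1% and 52.9% by upper quartile, and 65.9%, 39.5% and 53.1% without the member reads. Median log2 ratios in deep aestivation over non-aestivation were 0.04, 0.11 and 0.27 under these 3 scalings, against 0.16.

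No paired analysis was possible because each stage has 1 library, so leaving out a replicate was not done. Depth limits isotig01298 and isotig01299, which lie at or under 3 reads.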

Other observations

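Gut lining isotigs included the widest swings of the lists examined, and they ran in opposite directions between isotigs of the same description. The trypsin-like serine protease match isotig26752 had 405 reads in deep aestivation and 1 in non-aestivation (464-fold, 82.8 to 18364), and 4 in arousal. A second trypsin-like serine protease match, isotig13602, had 7 reads in deep aestivation and 1220 in non-aestivation (152-fold lower, 73.6 to 379), and 27 in arousal (41.8-fold lower than in non-aestivation, 28.6 to 63.6). The fatty acid binding protein match isotig19264 was 17.0-fold higher in arousal than in deep aestivation (16.4 to 17.7). The aminopeptidase N match isotig05199 had 23 reads in arousal and 1 in non-aestivation (24.9-fold, 4.04 to 1025), and 103 in deep aestivation. isotig05197, with the same description, had 49 reads at non-aestivation, 109 at deep aestivation and 79 at arousal. Only uniquely aligned reads are counted, so reads shared among isotigs of this description would be missing, and the part of this was not tested. Over the list 7 isotigs were higher and 7 lower in arousal over deep aestivation (median log2 ratio -0.26), and 10 higher and 3 lower in arousal over non-aestivation (median 0.79). For this list and those below, 3.37% of all isotigs were higher and 5.31% lower in arousal over deep aestivation. In arousal over non-aestivation 3.84% of all isotigs were higher and 5.21% lower. Beside isotig13602, those of the gut lining list lower in arousal than in non-aestivation were another aminopeptidase N match and a cubilin-like match. The first, isotig05198, had 5 reads in arousal and 28 in non-aestivation, and the second, isotig13982, 15 and 73. Both were named after their values were seen, as were isotig05197, isotig14870, isotig15011, isotig17642, isotig15106, isotig15845, isotig13852 and isotig15459.

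Among coelomocyte markers, the lysozyme match isotig18269 had 65 reads in deep aestivation and 2 in non-aestivation (37.2-fold, 9.90 to 314). It had 0 reads in arousal, at least 22.9-fold lower than in deep aestivation against a floor of 3 reads per library. The scavenger receptor class B match isotig06351 had 139 reads in arousal, against 36 in deep aestivation (3.65-fold, 2.51 to 5.42) and 27 in non-aestivation (5.57-fold, 3.67 to 8.76). The lowest against non-aestivation was a scavenger receptor cysteine-rich match, isotig05114, with 5 reads in deep aestivation, 3 in arousal and 16 in non-aestivation, which was neither. The list had 1 isotig higher and 4 lower in arousal over deep aestivation (median -0.41). The other lower ones were a scavenger receptor cysteine-rich match (isotig14870, 4 reads in arousal and 24 in deep aestivation), a mannose receptor match (isotig15011, 56 and 134) and a scavenger receptor class B match (isotig17642, 12 and 80). In arousal over non-aestivation 3 were higher and 0 lower (median 0.38), among them isotig15106 (73 and 39 reads) and isotig15845 (75 and 31), matches to scavenger and mannose receptors.

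Of the secretory pathway list, the Sec61 gamma subunit match isotig02636, part of the channel through which secreted proteins enter the endoplasmic reticulum, had 12 reads in arousal, against 130 in deep aestivation (11.5-fold lower, 6.34 to 22.8) and 106 in non-aestivation (8.16-fold lower, 4.48 to 16.3). The signal peptidase complex subunit 3 match isotig15003 had 35 reads in deep aestivation and 112 in non-aestivation (2.79-fold lower, 1.90 to 4.21), and 46 in arousal (2.25-fold lower than in non-aestivation). The highest were coatomer beta 2 matches, isotig29391 with 10 reads in deep aestivation and 5 in non-aestivation, and isotig25492 with 25 in arousal, 12 in deep aestivation and 12 in non-aestivation, all neither. The list had 0 higher and 1 lower in arousal over deep aestivation (median 0.10), and 0 higher and 2 lower in arousal over non-aestivation (median 0.42).

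Of the germ cell and gonad list, the spermatogenesis associated 17-like isotig08489 had 6 reads in arousal, against 42 in deep aestivation (7.41-fold lower, 3.13 to 21.3) and 43 in non-aestivation (6.62-fold lower, 2.81 to 19.0). The male germ cell-associated kinase match isotig17049 had 12 reads in arousal, 10 in deep aestivation and 1 in non-aestivation, and the nucleoplasmin-like isotig07260 had 18 in deep aestivation and 40 in non-aestivation, both neither. The uterine-ovary specific-44 match isotig15459 had 100 reads in arousal, against 198 in deep aestivation (2.10-fold lower, 1.64 to 2.69) and 264 in non-aestivation (2.44-fold lower). isotig07260 had 12 reads in arousal, 3.08-fold lower than in non-aestivation, and isotig13852 32 reads in arousal, against 10 in non-aestivation (3.46-fold higher, 1.66 to 7.90). The sperm phosphodiesterase match isotig10401 had 11 reads in arousal and 6 in deep aestivation, also neither. The list had 0 higher and 2 lower in arousal over deep aestivation (median -0.36), and 1 higher and 3 lower in arousal over non-aestivation (median -0.28).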
